A study of Schizosaccharomyces pombe with 2 samples.

Results

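The left arm of chromosome III of Schizosaccharomyces pombe, between the region near the chromosome end and a gained segment further in, is covered here by 1157 of the 41551 tiling probes on each array. These are the probes whose named start lies from 50 to 400 kb. They were set against the 1160 probes of the same chromosome from 650 to 1000 kb, called the right flank. The limits were drawn with the ratios already known, so the ratios below are descriptions and not tests of the choice. The data are 2 two-colour arrays of genomic DNA: on each, DNA of a sap1-1 revertant (genotype sap1-1, strain background 972h) carried Cy5 and DNA of the wild type in the same background carried Cy3. The labels number the revertants 1 and 2 without saying whether they were isolated separately, the dyes were not swapped, and the sap1-1 strain before reversion was not analysed here. Values are log2 ratios of revertant over wild type, centred on the median of all probes of the array, so that 0 is the typical copy number of the genome on that array and 1 is a doubling. Where a pair of values is given, replicate 1 comes first.

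In array comparative genomic hybridization each probe binds labelled DNA of both strains, and the ratio of the colours follows the ratio of the copies. Sap1 is an essential DNA-binding protein that acts, among other places, at a replication fork barrier in the ribosomal DNA. Chromosome III is the smallest chromosome of fission yeast and carries ribosomal DNA repeats at both ends. It also holds most of the wtf genes, many of which lie beside long terminal repeats (LTRs) of Tf retrotransposons. Some wtf genes, but not all, are meiotic drivers that kill the spores that do not inherit them.

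Per the labels' protocols, the DNA of both strains was digested before labelling with AluI, which cuts at AGCT, and RsaI, which cuts at GTAC. The sequences below show such sites in elements from opposite sides of the range of ratios on this arm. They are the first 150 coding bases of ura4 and of mrps8, and the 2 LTRs of 200 to 300 bases, whose ratios had opposite signs. Among the protein-coding genes with at least 3 probes, ura4 had the highest and mrps8 the lowest ratio. They were read from the RefSeq assembly ASM294v3 by its annotation, and capitals mark AluI and RsaI sites.
ura4 (chrIII:116426-116575, minus strand): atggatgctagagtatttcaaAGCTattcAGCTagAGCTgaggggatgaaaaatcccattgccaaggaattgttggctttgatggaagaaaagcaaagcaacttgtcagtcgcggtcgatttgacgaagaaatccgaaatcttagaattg
mrps8 (chrIII:332334-332483, minus strand): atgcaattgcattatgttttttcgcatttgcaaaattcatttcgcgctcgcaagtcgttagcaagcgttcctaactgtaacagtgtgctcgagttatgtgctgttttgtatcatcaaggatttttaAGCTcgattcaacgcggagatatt
LTR above 0 (chrIII:222987-223246, plus strand of the assembly): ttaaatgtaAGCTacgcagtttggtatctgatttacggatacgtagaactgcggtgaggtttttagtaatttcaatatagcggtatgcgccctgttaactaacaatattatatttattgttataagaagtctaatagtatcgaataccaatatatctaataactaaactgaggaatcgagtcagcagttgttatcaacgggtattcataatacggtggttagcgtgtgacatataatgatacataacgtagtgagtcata
LTR below 0 (chrIII:254350-254629, plus strand of the assembly): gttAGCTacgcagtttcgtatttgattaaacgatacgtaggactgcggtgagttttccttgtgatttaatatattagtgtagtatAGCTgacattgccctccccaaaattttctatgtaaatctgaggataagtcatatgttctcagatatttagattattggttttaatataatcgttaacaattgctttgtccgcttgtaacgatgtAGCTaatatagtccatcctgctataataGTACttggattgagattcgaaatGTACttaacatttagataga
The stretch of ura4 held 3 AluI sites and that of mrps8 held 1, with 0 RsaI sites in both. The LTR above 0 held 1 AluI site, and the LTR below 0 held 3 AluI and 2 RsaI sites. In these 4 stretches the number of sites and the sign of the ratio did not go together.

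The left arm was not at one level. Its outer section, toward the chromosome end, had a higher ratio on both arrays than its inner section, next to the gain. Over the whole arm (1156 probes, after 1 was left out for an outlier flag) the median log2 ratio was 0.16 and 0.10, a mean of 0.13 ± 0.04 (SD, n = 2) or 1.09-fold. The raw median signals were 2932 and 3017.5 in the revertant channel and 9319.75 and 9194.25 in the wild-type channel. The right flank had 0.00075 and 0.0065 over 1159 probes. The left arm exceeded it on both arrays, by 0.16 and 0.09, a difference of 0.12 ± 0.05 (SD, n = 2). With 2 arrays an exact sign permutation cannot give a p below 0.5.

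At the midpoint of the arm, 225000, the probes divide into 579 outer and 577 inner ones. The outer section had medians of 0.30 and 0.21, or 0.25 ± 0.06 (SD, n = 2) and 1.19-fold. In it, 67.2% and 62.5% of the probes lay above 0. The inner section had medians of 0.07 and 0.0091, or 0.04 ± 0.04 (SD, n = 2) and 1.03-fold, with 54.6% and 50.4% of its probes above 0. The difference between the sections was 0.23 on replicate 1 and 0.20 on replicate 2. At 0.22 ± 0.02 (SD, n = 2) it was larger than the spread between the arrays, and smaller than the step of 1 that a doubling in every cell would give. The corresponding sections of the right flank had means of -0.01 and 0.03. That flank lies away from the chromosome ends, and the median of the other chromosome ends also fell inward (values below).

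In steps of 50 kb the medians were 0.41 and 0.27 at 50 to 100 kb, 0.26 and 0.19 at 100 to 150 kb, and 0.32 and 0.23 at 150 to 200 kb. From 200 to 250 kb they were 0.07 and 0.03, followed by 0.12 and 0.07, by 0.06 and -0.01, and by 0.05 and -0.01 in the last step, which ends at 400 kb. The first 3 steps were therefore above 0.15 on both arrays, and the last 4 were below it. Just outside the outer limit, from 30 to 50 kb, 65 probes had medians of 0.59 and 0.48. Just outside the inner limit, from 400 to 420 kb, 67 probes had 0.21 and 0.13. The window from 430 to 440 kb had -0.15 and 0.84, so that the gained segment began there in replicate 2 and not in replicate 1.

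**Figure D1:**
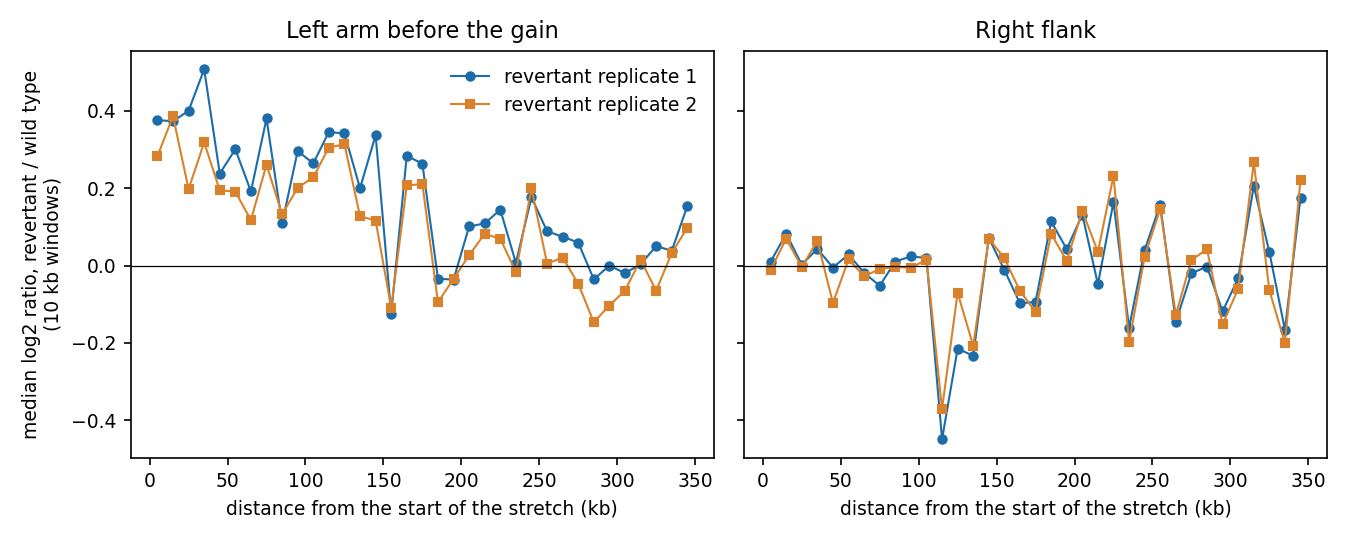
Median log2 ratio of each 10 kb window against its distance in kb from the start of the stretch, for the left arm and the right flank (circles, replicate 1; squares, replicate 2). In the left arm 17 of the first 18 windows lie above 0 on both arrays, and the later windows scatter around 0 as those of the right flank do.

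In 10 kb windows of 30 to 34 probes, the 35 windows of the left arm ran from -0.13 to 0.51 on replicate 1, with a median of 0.15, and from -0.15 to 0.39 on replicate 2, with a median of 0.12. Of the 18 windows that start in the outer section, 17 were above 0 on both arrays. Of the 17 that start in the inner section, 9 were above and 5 below 0 on both. In the right flank 13 were above and 13 below. The highest windows were 80 to 90 kb (0.51 and 0.32), 60 to 70 kb (0.37 and 0.39) and 50 to 60 kb (0.38 and 0.28), the last being the outermost. The lowest were 200 to 210 kb (-0.13 and -0.11), 330 to 340 kb (-0.04 and -0.15) and 230 to 240 kb (-0.03 and -0.09). The window at 200 to 210 kb was the only one of the outer section below 0 on either array, and its neighbours had means of 0.23 and 0.25. The innermost window, 390 to 400 kb, had 0.15 and 0.10.

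A size of 0.25 on both arrays was passed upward by 6 windows of the left arm, all in the outer section, and downward by 0. Of the 1254 windows of the genome 4.7% passed it upward and 4.39% downward. In the right flank 0 windows passed it upward and 1 downward, that of 760 to 770 kb with -0.45 and -0.37. On chromosomes I and II, without the first 50 kb, the middle 95% of 999 window means ran from -0.32 to 0.25. Of the left arm windows 8 lay above that range, all of them in the outer section, up to 0.41, while the highest inner window had 0.19. Limma, fitted on all windows against 0 with Benjamini-Hochberg adjustment at 0.05, called 21 windows of the arm higher and 1 lower. Of all windows it called 23.1% higher and 29.7% lower, or 52.8% in either direction. With means of probes in place of medians it called 21 windows of the arm higher and 10 lower, and 1061 of the 1254 windows of the genome in either direction. The limits of the arm were drawn from the same ratios, and nothing is read from these calls.

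The arrays differed slightly on the left arm. Replicate 2 was the lower one in 29 of 35 windows, with a median difference of -0.06 and a range from -0.22 to 0.02. In the right flank it was the lower one in 20 of 35, with a median difference of -0.0060. Among the 50 kb steps the difference was largest in the outermost, at -0.14. There the raw medians of the revertant channel were 3122 and 3089, and those of the wild-type channel were 8650 and 9048.

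Ratios above 0 were measured in the outermost 50 kb of all 6 chromosome ends, from 0.38 to 0.82. The 0.82 was that of the left end of chromosome III. In its first 10 kb the median raw wild-type signal was 65528 on both arrays, so many of those probes may be saturated. In the next 3 steps of 50 kb the left end of chromosome III had the highest value of the 6 ends. From 50 to 100 kb it had 0.34, and the other 5 ends had 0.14 to 0.22. From 100 to 150 kb it had 0.23 and the others 0.00082 to 0.09. From 150 to 200 kb it had 0.27 and the others -0.12 to 0.11. From 200 to 250 kb it had 0.05, inside the range of the others, -0.08 to 0.05. From 250 to 300 kb it was again above all 5, with 0.10 against at most 0.06, and in the last 2 steps 4 of 5 were lower. A fall inward was also seen in the median of the other 5 ends. It was 0.15, 0.04 and 0.04 in the first 3 steps from 50 kb, then -0.06, -0.07, -0.08 and -0.05. The right end of chromosome III, which also carries ribosomal DNA, had 0.22 ± 0.03, 0.09 ± 0.04 and -0.02 ± 0.04 in the first 3 of these steps (SD, n = 2). In the later steps it had 0.05, 0.06, 0.16 and 0.07. These were above the left end of the same chromosome in all but the step from 250 to 300 kb. The values stand side by side without a test, since the arm was chosen with them known. Loess within arrays evens out the dependence of the ratio on brightness. After it, the left end of chromosome III had 0.25, 0.17 and 0.21 in the 3 steps from 50 to 200 kb. The highest other end had 0.23, 0.06 and 0.07 there.

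**Figure D2:**
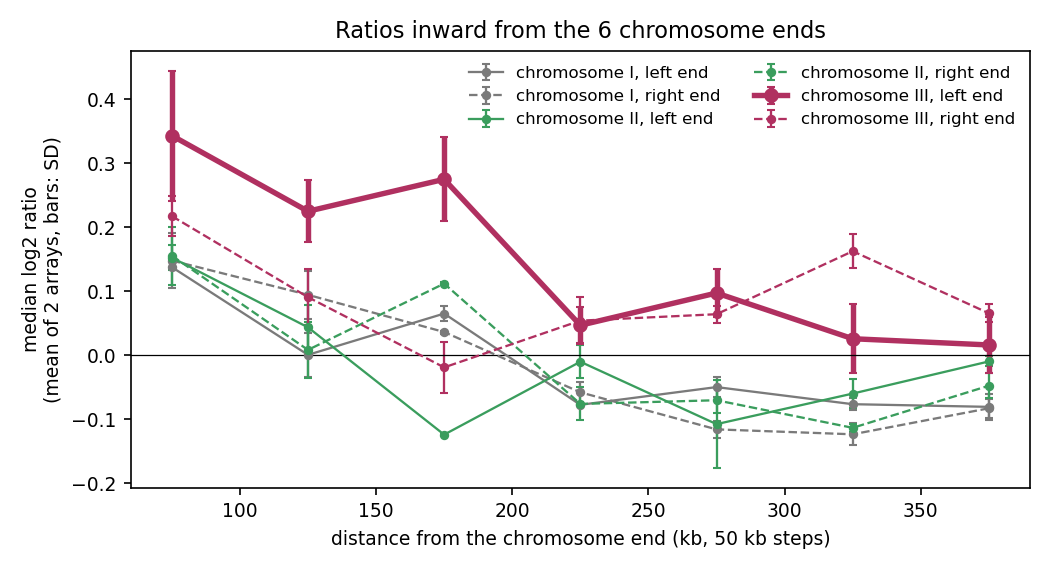
Median log2 ratio (mean of 2 arrays; bars show the SD) in 50 kb steps from 50 to 400 kb inward of each chromosome end, counted from position 1 at left ends and from the last probe at right ends. The thick line is the left end of chromosome III, at 0.34, 0.23 and 0.27 in the first 3 steps and 0.05 in the next.

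Neighbouring probes differed far more than the arrays did. Single probes of the left arm ran from -3.02 to 1.66 on replicate 1 and from -2.63 to 1.73 on replicate 2, with SDs of 0.66 and 0.64. The difference between the arrays at the same probe had an SD of 0.152, and 9.52% of the probes were past 1 in size on both arrays. All 1156 probes were well above background in both channels, and 15 were saturated in a channel. A mean over the few probes of a gene therefore carries a deviation that both arrays share and that the SD between arrays does not show.

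The ratio went along with base composition and with the length of the restriction fragment. Steps of 300 bases with under 30% GC had a median of 0.26 ± 0.0071 (SD, n = 2; 134 probes), and those with 45% or more had -0.36 ± 0.01 (SD, n = 2; 65 probes). The right flank ran the same way, from 0.07 to -0.17. By the AluI and RsaI fragment that holds the middle of the step in ASM294v3, 393 probes on fragments under 200 bases had -0.16 ± 0.08, 496 on 200 to 500 bases had 0.38 ± 0.05, and 244 on 500 to 1000 bases had 0.11 ± 0.01 (SD, n = 2). The right flank had -0.38, 0.22 and -0.00032 in these classes.

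On the mean of both arrays the outer section was above the inner section in each of the 9 classes. On fragments under 200 bases it had -0.06 against -0.30, and on fragments of 200 to 500 bases it had 0.50 against 0.25. At 35 to 40% GC it had 0.29 against 0.07. The smallest difference was at 45% GC or more, with -0.32 over 25 probes against -0.36 over 40, and there replicate 2 had the outer section slightly lower, at -0.347 against -0.343. Median GC was 36.0% in the outer section and 36.3% in the inner section. The part of fragment length and GC content in the ratios of single genes was not tested.

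**Figure D3:**
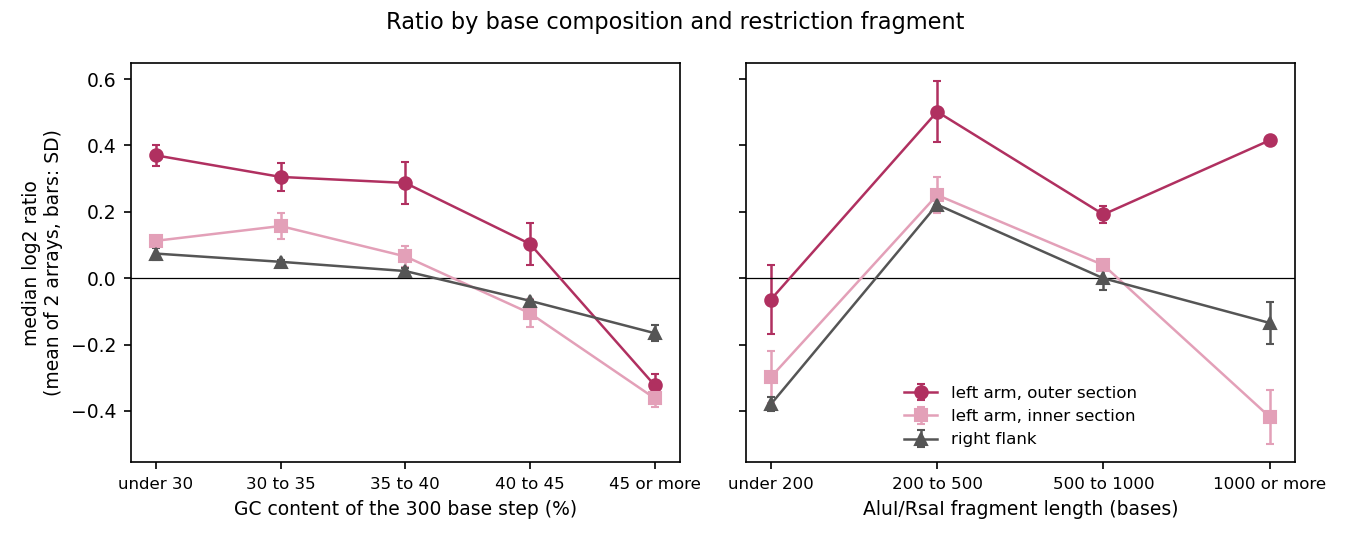
Median log2 ratio (mean of 2 arrays; bars show the SD) of probes grouped by GC content of the 300 base step and by length of the AluI/RsaI fragment, for the outer and inner sections of the left arm and for the right flank. In all 3 stretches the ratio is highest on fragments of 200 to 500 bases, and the mean of the outer section lies above that of the inner section in every class.

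The arm holds 139 annotated genes, of which 133 are protein-coding, 2 are pseudogenes and 4 are tRNA genes, and 125 had at least 3 probes with the middle of their step in the gene. Their means had a median of 0.07 and 0.02, against -0.09 and -0.10 in the 127 genes of the right flank. Limma with Benjamini-Hochberg adjustment over the 351 genes of the first 1 Mb called 30 genes of the arm higher and 27 lower. Of all genes tested, which include those of the gained segment, it called 30.2% higher and 24.8% lower, or 55% in either direction. Of the 127 right flank genes it called 24 higher and 50 lower. In the outer section 22 of 66 genes were called higher and 8 lower, and in the inner section 8 of 57 were called higher and 19 lower. Nothing is read from these calls, which rest on the agreement of the arrays. Replicate 2 was the lower one in 105 of the 125 genes.

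Among the genes with at least 3 probes the highest mean was that of wtf3, a pseudogene of the wtf family, with 0.88 and 0.99 over 3 probes. It lay below ura4 after loess (0.29 against 0.96), with normexp (0.79 against 0.93) and with medians of probes (0.82 against 1.06). The highest protein-coding gene was ura4 (chrIII:115589-116625), which encodes orotidine 5'-phosphate decarboxylase of uracil synthesis, a selectable marker in this yeast. Its 4 probes had 1.48, 0.22, 1.07 and 1.13 on replicate 1 and 1.22, 0.0043, 0.88 and 1.17 on replicate 2. Their raw revertant signals on replicate 1 were 3927, 2557, 7976 and 860, and their raw wild-type signals were 4845, 7271, 12023.5 and 1352. The gene mean was 0.97 and 0.82, or 0.90 ± 0.11 (SD, n = 2; adjusted p of 0.0041 from limma). The probe before the gene had 0.20 and 0.18. The 3 probes after it, by position, had 1.11 and 0.91, then -0.39 and -0.48, then 0.92 and 0.56. Of the 9 probes in and around the gene, 5 have names that end in R, an unexplained mark. These 5 ran from 0.56 to 1.48 over both arrays, inside the gene and outside it. The others ran from -0.48 to 1.17, and the highest of them was the last probe of the gene, with 1.13 and 1.17. Whether the mark goes with the ratio elsewhere on the arm was not tested. The 10 kb window around the gene had 0.19 and 0.12.

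The others of the 10 highest were bcd1 (0.75 and 0.73), of small nucleolar RNA biogenesis, mae2 (0.75 and 0.65), annotated as a malate dehydrogenase, meu23 (0.63 and 0.71), SPCC613.01 (0.65 and 0.55), annotated as a transporter, and SPCC1235.01 (0.59 and 0.60), which is uncharacterized. They also included wtf5 (0.59 and 0.58), annotated as an antidote-like suppressor of meiotic drive. The remaining genes were SPCC613.03 (0.65 and 0.42), annotated as calcium-binding, and rng3 (0.63 and 0.39), a UCS-domain protein that acts on myosin in cell division. SPCC613.03 and rng3 overlap and share probes. The 10 had adjusted p from 0.0030 to 0.021 in limma, and rng3 lost its call with medians of probes (adjusted p of 0.051). After loess the means of 6 of them were lower by over 1.5 times, at 0.29 for wtf3, 0.24 for mae2, 0.39 for meu23, 0.39 for SPCC613.01, 0.30 for SPCC1235.01 and 0.28 for wtf5. Of them mae2 and wtf5 lie in the inner section and the other 8 in the outer section.

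The lowest gene was mrps8 (chrIII:331480-332566), a protein of the mitochondrial ribosome, with -0.88 and -0.99 over 4 probes (adjusted p of 0.0033 from limma). Others of the 10 lowest were gcd1 (-0.61 and -0.65), annotated as a glucose-6-phosphate dehydrogenase, pmp20 (-0.56 and -0.52), annotated as a thioredoxin-related chaperone, and tef101 (-0.43 and -0.61), translation elongation factor 1 alpha. They also included SPCC736.13 (-0.47 and -0.46), annotated as a dehydrogenase, qcr2 (-0.42 and -0.50), of the respiratory chain, mmi1 (-0.44 and -0.48), which marks meiotic transcripts for removal, efr3 (-0.40 and -0.44), and sen54 (-0.36 and -0.46), of the tRNA splicing endonuclease. The size of several depended on the processing. The mean of mrps8 was -0.61 after loess and -0.43 in the series table, where pmp20 had -0.19, SPCC736.13 had -0.24 and qcr2 had -0.26. With medians of probes tef101 had -0.29, SPCC736.13 had -0.77, and mmi1 lost its call (-0.20, adjusted p of 0.14 from limma). After loess sen54 had -0.21. Among the 10 lowest, GC content ran from 34.4% in mrps8 to 47.8% in tef101. Over the 125 genes of the arm the mean ratio was lower at higher GC content (r = -0.20). The genome holds near-identical copies of tef101, and its probes may read those too.

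**Figure D4:**
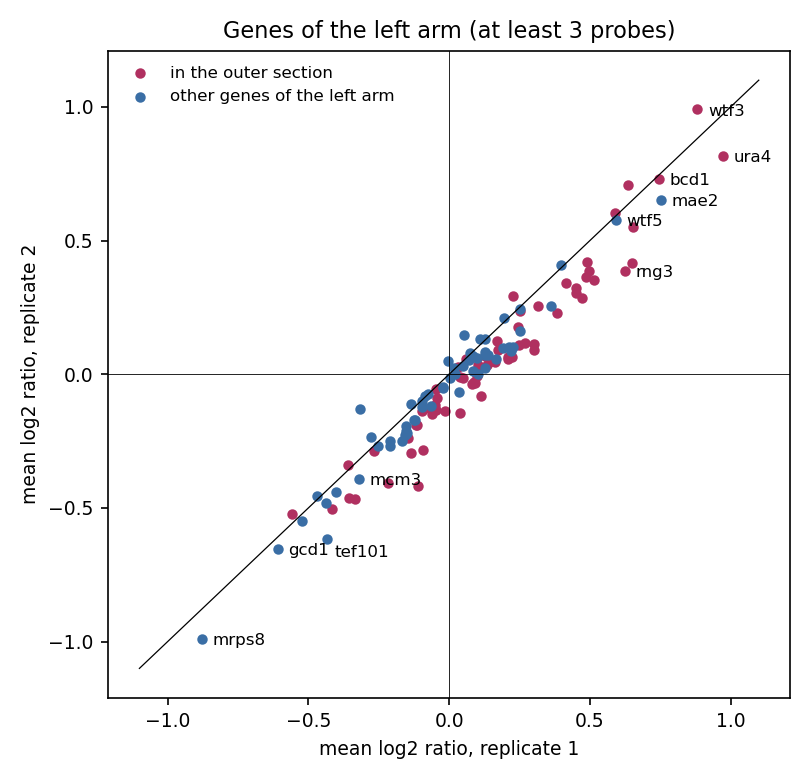
Mean log2 ratio of each of the 125 genes of the left arm on replicate 1 (horizontal axis) and replicate 2 (vertical axis), with genes that end within the outer section in red, the others in blue, and the line of equal values. The points follow the line from mrps8 to wtf3 and ura4, and 105 of 125 lie below it.

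The symbols listed for replication and repair took 3 genes of the arm. Of these, 0 were called higher and 1 lower, where 30.2% and 24.8% of all genes tested were. The gene called lower was mcm3, a subunit of the replicative helicase, with -0.32 and -0.39 over 13 probes (adjusted p of 0.011 from limma). The median of the same probes was 0.017 on the mean of both arrays, so its sign depends on the summary. The repair genes rhp16 (0.30 and 0.11) and rhp7 (0.30 and 0.09) did not pass, with adjusted p of 0.081 and 0.105 in limma. Both passed after loess (means of 0.35 and 0.49, adjusted p of 0.026 and 0.014), with normexp and in the series table, and rhp7 also with medians of probes, while its mean was -0.039 with each probe placed 30 bases after its named start. By their annotated products kpa1, a DNA repair polymerase (0.11 and 0.13), spb70, a subunit of DNA polymerase alpha (-0.10 and -0.12), and dbl2, of DNA recombination (0.13 and 0.07), belong to the same functions. They were added after the values were seen, and none of these 3 passed. The gene cdc31 was left out of this list because its product is a centrin of the spindle pole body. The symbols listed for telomere genes and for kinetochore and centromere genes took 0 genes of the arm, although the kinetochore gene fta7 lies on it (values below).

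Of the ribosomal protein genes with at least 3 probes, rpl902 was called lower (-0.36 and -0.34 over 3 probes), but lost the call in the series table (-0.068, adjusted p of 0.18 from limma) and with medians of probes (-0.21, adjusted p of 0.063). Its mean was 0.12 with each probe placed 30 bases after its named start. In rpl35 the values were -0.11 and -0.42, with adjusted p of 0.11, and rpl2402 had 2 probes with -0.04 and -0.17. The RNA polymerase III subunit rpc37 had -0.01 and -0.14, and did not pass. Its mean was 0.041 after loess, and with medians of probes it was 0.39 and passed (adjusted p of 0.032 from limma).

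The wtf family had 5 members on the arm, and of the 4 with at least 3 probes 3 were called higher and 0 lower, where 30.2% and 24.8% of all genes tested were. Besides wtf3 and wtf5 this was wtf4, annotated as a meiotic drive poison, with 0.23 and 0.29 over 3 probes. Its mean was -0.10 after loess, 0.55 in the series table and 0.88 with the median of probes. In wtf7 the values were -0.13 and -0.11 over 7 probes, and the mean was above 0 after loess, with normexp and in the authors' deposited series table. The pseudogene wtf6 had 0.33 and 0.29 over 2 probes. The 25 probes whose step touched a wtf element had medians of 0.70 and 0.66, against 0.15 and 0.09 for the 1105 probes that touched no wtf element, LTR or tRNA gene. The groups differ in probe names: 9 of the 25 end in the letter m, against 10 of the 1105, and probes so named ran higher (values below). Members of this family resemble each other in sequence, so a probe may read more than 1 of them, which was not tested.

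The 12 LTRs did not share a direction. Their means ranged from -1.12 (chrIII:286728-287053) to 0.58 (chrIII:111397-111560) over 1 or 2 probes each, and the 21 probes had medians of 0.04 and -0.22. Of the LTRs printed above, that at chrIII:222987-223246 had 0.54 and 0.53 and that at chrIII:254350-254629 had -0.57 and -0.65. The 6 probes whose step touched 1 of the 4 tRNA genes had medians of 0.37 and 0.27. A group of 24 probes whose names end in the letter m, which the files do not explain, stood apart with 0.81 and 0.88. Of these, 14 touched a wtf element, LTR or tRNA gene, and the other 10 had 0.82 and 0.86. In the right flank 18 such probes had 0.54 and 0.50. Without them the outer section had a mean of 0.24 and the inner section of 0.04.

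Some further genes were picked for their function after the values were seen. Of the 4 hexose transporter genes named ght, which lie between 200 and 240 kb, ght6 (-0.14 and -0.24) and ght1 (-0.15 and -0.19) were called lower by limma, with adjusted p of 0.039 and 0.030. Of all genes tested 24.8% were called lower, and of the 127 right flank genes 50 were. Nothing is read from 2 of 4. The other two, ght5 (-0.05 and -0.13) and ght8 (-0.0049 and 0.05), did not pass. The windows of 200 to 210 kb and 230 to 240 kb, named above among the lowest, hold ght6 and ght1. The argonaute gene ago1 of RNA interference had 0.09 and 0.07, the microtubule polymerase gene dis1 had -0.07 and -0.07, fta7 of the kinetochore had 0.04 and -0.15, and the Aurora kinase gene ark1 had -0.12 and -0.19. None of these 4 passed.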

How the data were processed

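Genomic DNA was measured on 2 Agilent tiling arrays of 2 colours, both on 1 slide. Per the file headers, Feature Extraction 10.10.1.1 made the authors' deposited files, whose processed signals are intensities with background subtracted and a linear dye factor per channel. The deposited log10 ratio is that of these signals. The deposited series table holds log2 ratios that look smoothed over neighbouring probes (how is not stated; medians -0.0030 and -0.01) and served as an alternative.

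Log2 ratios of red over green had the median over 41551 probes subtracted (0.09 and 0.08 before centring), without loess, and 13 probes flagged as outliers were left out. Medians of 10 kb windows (5 probes or more) and means of genes (3 or more) were set against 0 in limma 3.58.1 (R 4.3.3). Before that, limma was run on simulated windows with noise drawn separately for each array. That run left out deviations that both arrays share. The p-values of limma measure only the spread between 2 arrays and leave out the wild type's own spread. The arrays did not carry the same revertant DNA, since the window from 430 to 440 kb had -0.15 and 0.84. Whether the revertants arose independently is not stated. Precision is limited by the number of arrays. For the probe names a build was not given in the sources used here; ratios followed GC content in ASM294v3 best 150 bases after the named start (r = -0.15; r = -0.145 at -90 bases), so a probe was placed at the middle of its 300 base step. Genes were used up to 1 Mb only.

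Named windows are the 3 highest, 3 lowest and both edges. Named genes are the 10 highest, the 10 lowest and all members of lists of replication and repair, telomere, ribosomal protein, translation factor, RNA polymerase, kinetochore, wtf and tRNA genes and LTRs; some genes that this rule takes are not reported here. Members and lists were chosen with earlier results of these data known. Alternatives were loess, normexp (offset 50), the series table, no saturated probes, adjustment for GC, other windows, means or medians, probe minimums and single arrays. Python 3.11.15, numpy 2.4.6, pandas 2.3.3 and matplotlib 3.10.9 were used.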

Additional observations from a re-analysis of the deposited data

How the results depend on the processing

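The left arm exceeded the right flank under every alternative run, by 0.11 to 0.13, and by 0.09 to 0.16 with either replicate left out. Its own median was 0.098 to 0.158 without a replicate and 0.050 with the mean of probes. The right flank was -0.030 after loess, -0.0040 with normexp, 0.032 in the series table, -0.071 with means, and 0.00075 to 0.0065 without a replicate. The outer section exceeded the inner one by 0.178 in the series table, 0.186 with means and 0.20 to 0.23 without a replicate; these alternatives were chosen after seeing the data. Limma called 12 of 35 windows after adjustment for GC, and 36 of all 100 windows tested (in place of 1254). It called 46 of 70 at 5 kb (1446 of 2499 in the genome) and 10 of 17 at 20 kb (307 of 628). The main run called 22 of 35 (662 of 1254). Higher against lower, the arm's calls were 21 to 10 with means, 20 to 5 after loess and 37 to 9 at 5 kb, against 21 to 1. In the genome 1061 of 1254 were called with means and 788 after loess. Past 0.25 on both arrays were 2 of 35 windows after loess (83 of 1254 in the genome) and 1 of 35 with means (204 of 1254). At 5 kb 17 of 70 passed (426 of 2499) and at 20 kb 2 of 17 (35 of 628), against 6 of 35 (114 of 1254). Gene calls ran from 47 of 98 with at least 5 probes (155 of 263 over all genes tested) to 75 of 125 in the series table (202 of 351). The main run had 57 of 125 (193 of 351). The split of higher against lower was 58 to 17 in the series table and 46 to 20 with medians of probes, against 30 to 27. With medians of probes, 185 of all 351 genes tested were called. For the alternatives the split over all windows or all genes tested was not counted, so nothing is read from the splits of the arm. Among 29 named genes 164 of 188 values kept their sign and side of the threshold, 4 lost the call (rng3, mmi1 and rpl902 with medians, and rpl902 in the series table), 11 gained one and 9 changed sign: mcm3 with medians (0.017), rhp7 and rpl902 with probes placed 30 bases after the named start (-0.039 and 0.12, chosen after seeing the data), rpc37 after loess and with medians (0.041 and 0.39), wtf4 after loess (-0.099), and wtf7 after loess, with normexp and in the series table (0.026, 0.042 and 0.0019). The causes were not tested; GC adjustment changed the values and the number of windows tested together. Normexp used median spot signals. Limma could not be fitted with 1 array, which leaves no residual degree of freedom. No paired analysis was possible because the arrays form 1 group.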
